A study of Mus musculus with 24 samples.

Results

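Untreated mouse embryonic fibroblasts that lack Atf4 were compared with untreated wild-type fibroblasts of the same line pair. The comparison rests on 4 of the 24 arrays of the series: 2 labelled ATF4KO and untreated, and 2 labelled wild type and untreated whose scanner files name the Atf4 wild-type line. Each array measured total RNA of 1 sample, labelled with Cy3, on a one-colour Agilent expression array. The series studies the integrated stress response in fibroblasts that are wild type, Perk -/-, Atf4 -/-, eIF2a S51A mutant or carry Fv2E-PERK. Besides the untreated arrays it holds arrays of cells given tunicamycin at 2 ug/mL for 12 h, or, for Fv2E-PERK, the agent named AP for 12 h. Other untreated wild-type arrays come from another wild-type line and were left out of the comparison. All cells were grown in medium with 2-mercaptoethanol and non-essential amino acids, so the untreated cells of both genotypes had these supplements. Whether the replicates came from separate cultures is not in the labels; the tests therefore see nothing but how much the deposited samples of a group vary, and part or all of that can be technical. There was 1 Atf4-null line and 1 wild-type line, and a difference between the lines cannot be told apart from the lack of Atf4. In bulk RNA, fewer cells of a kind and less RNA per cell cannot be told apart either.

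ATF4 is a transcription factor of the bZIP family. Its messenger RNA is translated more when the initiation factor eIF2 alpha is phosphorylated by PERK (the endoplasmic reticulum kinase), GCN2, PKR or HRI, a programme called the integrated stress response. ATF4 drives genes of amino acid synthesis and import, transfer RNA charging, redox defence and stress signalling, often as a dimer with a C/EBP protein on a composite DNA element. Fibroblasts without ATF4 are known to need added amino acids and a reducing agent to grow. The question here is which genes differ between the genotypes when no stress is added.

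Levels are given as log2 of the processed signal minus the 75th percentile of its array, so that 0 is the level of the probe at that percentile and a difference of 1 is a change of 2-fold. The 75th percentile was 326 and 295 units of intensity on the wild-type arrays and 329 and 366 on the Atf4-null arrays. The share of probes flagged well above background was 55.8% and 45.1% on the wild-type arrays and 55.9% and 50.2% on the Atf4-null arrays. No spot was saturated, and the number of arrays limits the precision. All 4 arrays lay on 1 slide, and the wild-type and the Atf4-null array of replicate 1 were scanned in 1 session and those of replicate 2 in another. The difference within each session is therefore given for Atf4 and Trib3 and for the medians of several lists, but not for every gene. All 14 fibroblast markers, a list that includes the collagen genes Col1a1, Col1a2 and Col3a1, were well above background on 3 arrays, and 12 of 14 on Atf4-null replicate 2. The summed signal of this list, in units of the 75th percentile, was 822 and 858 in wild type and 1280 and 683 in Atf4-null cells. Markers of haematopoietic cells summed to 22.4 and 17.2 in wild type and 21.5 and 11.8 in Atf4-null cells, those of epithelium to 3.83 and 4.95 against 1.55 and 1.76, and those of endothelium to 34.1 and 26.9 against 48.2 and 34.3. Their part in the differences below was not tested.

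The targeted gene was read first. Atf4 stood at 7.22 and 7.20 on the wild-type arrays and at 2.79 and -0.05 on the Atf4-null arrays, all well above background. The groups do not overlap, and the Atf4-null arrays lie far apart. The difference was -5.83 ± 1.38 (SE, n = 2 per group; limma adjusted p = 0.0481), which is 57.1-fold lower in Atf4-null cells. It was -4.42 within the session of replicate 1 and -7.25 within that of replicate 2. A second probe gave 2.80 and 2.50 in wild type against -2.06 and -4.88 in Atf4-null cells, and the last of these was not well above background. The call is lost without either wild-type array (adjusted p = 0.185 without replicate 1 and 0.166 without replicate 2) or without Atf4-null replicate 2 (0.195). It is also lost with quantile normalization (0.0705), with the replicate number as a block (0.0744) and with no filter on dim probes (0.0964). The probes were not placed relative to the targeted part of the gene, so these levels do not check the deletion itself.

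Of 13204 genes tested, 1060 differed at a limma adjusted p under 0.05, which is 8.03% of those tested. In Atf4-null cells 343 were higher (2.6%) and 717 were lower (5.43%). At an unadjusted p under 0.05, 9.14% were higher and 11.2% lower. Each list below is to be read against these shares. The median difference of all tested genes was 0.08. Where a gene was not well above background on 1 array of its dimmer group, its difference rests partly on a level that was not measured, and it is called a fitted difference. Fitted differences were large: 1054 of the 1060 passed 2-fold, and 34 of the higher and 170 of the lower genes passed 16-fold. These counts include genes whose dimmer group was not well above background, so their folds were not measured. Such a gene passed the filter through its brighter group alone, which set its direction. With the filter on both groups 717 genes were called in all, 250 higher and 467 lower. With the scan session as a block 1272 genes were called. The count fell to 445 without wild-type replicate 1, to 672 without wild-type replicate 2 and to 688 without Atf4-null replicate 2.

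The integrated stress response list holds 24 transcription factors and signalling targets, all on the array, of which 23 were tested. In Atf4-null cells 6 of these were lower and 0 higher by limma, against 5.43% and 2.6% of all tested genes. At an unadjusted p under 0.05, 12 were lower and 0 higher, against 11.2% and 9.14% of all tested genes. The list's median was -0.77, against 0.08 for all tested genes, and it was -0.95 and -0.78 within the 2 scan sessions. Leaving out an array of the comparison gave 3 lower without wild-type replicate 1, 3 without either Atf4-null array in turn, and 5 without wild-type replicate 2.

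The promoters of these genes were searched for the core letters of the C/EBP-ATF composite element. RefSeq promoters, running from 250 bases before to 50 bases after each annotated start on GRCm38.p6, were searched on both strands for TGATGNAA, the core of that element, and for TGACGTCA, the cyclic AMP response element. Members of the first 4 lists, which cover stress signalling, amino acid synthesis, amino acid transport and transfer RNA charging, that were lower in Atf4-null cells had 10 promoters of 7 genes in the RefSeq table, of which 4 held TGATGNAA. The 4 matched stretches are shown so that the matched letters can be read beside the values below. Capitals mark the match, and the strand is that of the gene.
Asns, chr6:7693210-7693268, minus strand: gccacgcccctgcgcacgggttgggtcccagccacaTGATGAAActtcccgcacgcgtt
Chac1, chr2:119351013-119351092, plus strand: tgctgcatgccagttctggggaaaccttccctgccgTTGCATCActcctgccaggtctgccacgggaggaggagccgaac
Trib3, chr2:152344028-152344057, minus strand: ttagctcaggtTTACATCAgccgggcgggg
Vldlr, chr19:27216784-27216863, plus strand: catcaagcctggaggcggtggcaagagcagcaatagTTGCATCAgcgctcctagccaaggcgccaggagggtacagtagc
In Chac1, Trib3 and Vldlr the match is on the opposite strand to the gene, and in Trib3 it begins 14 bases past the annotated start. TGATGNAA was held by 3.97% of all 32851 RefSeq promoters and by 2.35% of those of tested genes. Over all members of the 4 lists, called or not, the shares were higher. They were 28.6% for stress signalling, 13.6% for amino acid synthesis, 14.8% for amino acid transport and 38.5% for the cytosolic synthetases. The 4 of 10 promoters above are to be read against these shares. It was held by 4.07% of the promoters of genes lower in Atf4-null cells and by 0.898% of those of genes higher. TGACGTCA was held by 1.79% of all promoters and by 2.91% of those of tested genes. Among promoters of the lower genes 10 held it (1.45%), and among those of the higher genes 4 (1.2%). No stretch can match both motifs at once. A match describes these letters only.

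Among the stress signalling genes, Trib3, a pseudokinase that restrains AKT and ATF4 itself, was 3.19 and 2.71 in wild type and 0.46 and -0.28 in Atf4-null cells. Its difference was -2.87 ± 0.34 (limma adjusted p = 0.00371), or 7.29-fold lower, with -2.73 and -3.00 within the 2 sessions. Adm2, which encodes the peptide hormone adrenomedullin 2, was -1.50 and -2.38 in wild type against -4.66 and -5.56, the last not well above background, a fitted difference of -3.17 ± 0.40 (adjusted p = 0.0051). Vegfa, the vascular growth factor, was 3.44 and 2.90 against 0.22 and 0.76, a difference of -2.68 ± 0.50 (adjusted p = 0.0216). In each of the 3 genes every Atf4-null array lay below every wild-type array, and Trib3 kept its call without each of the 4 arrays in turn. Adm2 passed the filter through the wild-type arrays alone. Fits without 1 array kept that filter, so they are no further check on Adm2. With normexp background correction the difference of Adm2 was -1.15 and its call was lost (adjusted p = 0.0551).

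Vldlr, a lipoprotein receptor, was 1.51 and 2.13 in wild type against -0.38 and -0.17 in Atf4-null cells, 4.28-fold lower (difference -2.10 ± 0.32, limma adjusted p = 0.0103). Atf5, a bZIP factor whose messenger RNA is also controlled at translation, was 6.05 and 5.18 against 3.89 and 3.54 (difference -1.90 ± 0.42, limma adjusted p = 0.0379). Chac1, which degrades glutathione, was 2.80 and 2.07 against 0.46 and 0.83 (difference -1.79 ± 0.33, limma adjusted p = 0.0211). The groups of these genes did not overlap either. Without wild-type replicate 1 the adjusted p was 0.124 for Vegfa, 0.19 for Atf5 and 0.111 for Chac1. Without wild-type replicate 2 it was 0.0612 for Vegfa and 0.0516 for Vldlr. The calls of Vegfa, Atf5 and Chac1 were also lost without Atf4-null replicate 1 (adjusted p = 0.0865, 0.082 and 0.0789) and without Atf4-null replicate 2 (0.0589, 0.147 and 0.0536). That of Atf5 was lost with quantile normalization too (0.0503).

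Several well-known targets of the pathway did not pass the test. Nupr1, a small stress-induced chromatin protein, was 5.08 and 3.25 in wild type against 1.83 and 2.31 (difference -2.09 ± 0.54, limma adjusted p = 0.0652). Sesn2, which restrains mTORC1, differed by -1.37 ± 0.53 (adjusted p = 0.204), and Ppp1r15a, the stress-induced subunit of the eIF2 alpha phosphatase, by -0.87 ± 0.22 (0.0619). Ddit3, which encodes the death-linked factor CHOP, was 1.43 and 1.86 in wild type against 2.35 and 1.60, and these groups overlap (difference 0.33 ± 0.32, limma adjusted p = 0.667). Differences of 0.08 for Cebpg, a dimer partner of ATF4, and 0.13 for Eif4ebp1, which represses translation initiation, likewise did not pass (limma adjusted p = 0.911 and 0.886). Atf3, another bZIP factor, differed by -0.98 ± 0.31 (adjusted p = 0.124).

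**Figure D1:**
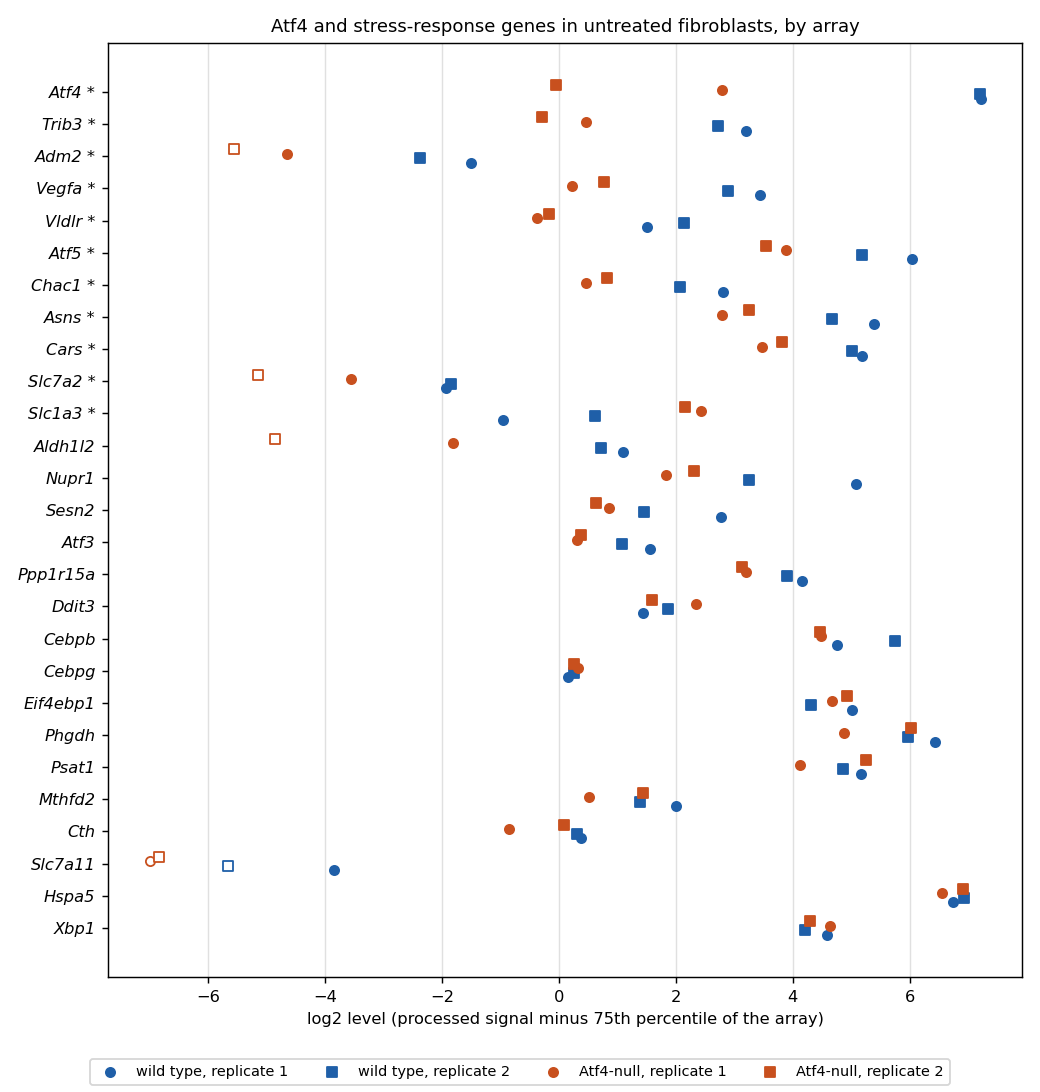
Level of Atf4 and of 26 other stress-response genes on each of the 4 arrays (x axis: log2 level relative to the 75th percentile; open symbols: not well above background; asterisk: limma adjusted p under 0.05 in untreated cells). Atf4 lies near 7.2 on both wild-type arrays and at 2.79 and -0.05 on the Atf4-null arrays, while Ddit3, Cebpg, Hspa5 and Xbp1 overlap or nearly overlap between genotypes.

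Of 23 tested genes of amino acid and one-carbon synthesis, Asns passed the test and was lower, and 0 were higher by limma, a share of lower genes near the 5.43% of all tested genes. At an unadjusted p under 0.05, 5 were lower and 0 higher, against 11.2% and 9.14%. The list's median was -0.46, but it was -0.93 within the session of replicate 1 and -0.01 within that of replicate 2. Asns, which makes asparagine, was 5.39 and 4.67 in wild type against 2.78 and 3.25 in Atf4-null cells, 4.04-fold lower (difference -2.01 ± 0.36, limma adjusted p = 0.018). That call was lost without wild-type replicate 1 (adjusted p = 0.102) and without Atf4-null replicate 1 (0.0695). Aldh1l2, a mitochondrial folate enzyme, was 1.1 and 0.72 against -1.82 and -4.85, the last not well above background, a fitted difference of -4.24 ± 1.04 that did not pass (limma adjusted p = 0.0548).

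The serine enzymes gave smaller differences. Phgdh, the first enzyme of serine synthesis, was 6.43 and 5.97 in wild type against 4.87 and 6.02 in Atf4-null cells (difference -0.75 ± 0.39, limma adjusted p = 0.355). Psat1, the next enzyme, was 5.16 and 4.85 against 4.12 and 5.26 (difference -0.32 ± 0.40, adjusted p = 0.759). In both, Atf4-null replicate 1 was low and replicate 2 lay with or above the wild-type arrays. Mthfd2, a mitochondrial folate enzyme, differed by -0.72 ± 0.43 (adjusted p = 0.442), and Cth, which makes cysteine by transsulfuration, by -0.73 ± 0.46 (0.463).

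Among 20 tested amino acid transporters 1 was higher and 1 lower, with a median of 0.13. These counts are near the shares of all tested genes, 2.6% and 5.43%. Slc7a2, a carrier of arginine and other cationic amino acids, was -1.93 and -1.84 in wild type against -3.56 and -5.15, the last not well above background (fitted difference -2.47 ± 0.48, limma adjusted p = 0.0253; -1.08 with normexp). Slc1a3, a glutamate transporter, was higher in Atf4-null cells, at 2.43 and 2.15 against -0.96 and 0.61 (difference 2.46 ± 0.50, limma adjusted p = 0.0292). The call of Slc7a2 was lost without either wild-type array (adjusted p = 0.113 and 0.108). That of Slc1a3 was lost without wild-type replicate 1 (0.0801) or without either Atf4-null array (0.105 and 0.0898). The cystine carrier Slc7a11 was above background on 1 of the 4 arrays, wild-type replicate 1, and was not tested.

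Of 20 cytosolic aminoacyl-tRNA synthetases, which charge transfer RNA, 1 was lower and 0 were higher by limma, near the 5.43% and 2.6% of all tested genes. At an unadjusted p under 0.05, 2 were lower and 1 higher, against 11.2% and 9.14%. The median was -0.18, and it was -0.71 within the session of replicate 1 and 0.21 within that of replicate 2. Cars, the cysteine enzyme, was 5.18 and 5.01 in wild type against 3.47 and 3.81 (difference -1.46 ± 0.24, limma adjusted p = 0.0143), and the call was lost without either wild-type array (0.0895 and 0.054). The mitochondrial enzymes of this family, 16 tested, had 0 called in either direction by limma and 1 higher at an unadjusted p under 0.05.

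Genes of the other branches of the unfolded protein response had few calls. Of 25 chaperones and folding enzymes of the endoplasmic reticulum 0 were called by limma, with a median of 0 and with 4 lower and 0 higher at an unadjusted p under 0.05, against 11.2% and 9.14% of all tested genes. Hspa5, the chaperone BiP, was 6.74 and 6.92 in wild type against 6.54 and 6.91 (difference -0.10 ± 0.23, limma adjusted p = 0.884). Xbp1, the factor spliced by IRE1, differed by 0.07 ± 0.26 (adjusted p = 0.931). Of 19 genes of endoplasmic-reticulum-associated degradation 1 was lower, near the 5.43% of all tested genes. This was Derl3, which was -2.85 and -2.71 in wild type and not well above background in Atf4-null cells, at least 4.02-fold lower (limma adjusted p = 0.00142). With normexp background correction its difference was -0.846 and its call was lost (adjusted p = 0.163), so the bound holds only under the main background correction. In these bounds the dim group is set at its own signal or at the lowest signal well above background on the array, whichever is higher. Bounds here and below are those of the main processing and need not hold in every setting run. Of 28 cell cycle and replication genes 0 were called, and 0 had an unadjusted p under 0.05. Of 24 autophagy genes 0 were called, with 1 lower at an unadjusted p under 0.05.

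**Figure D2:**
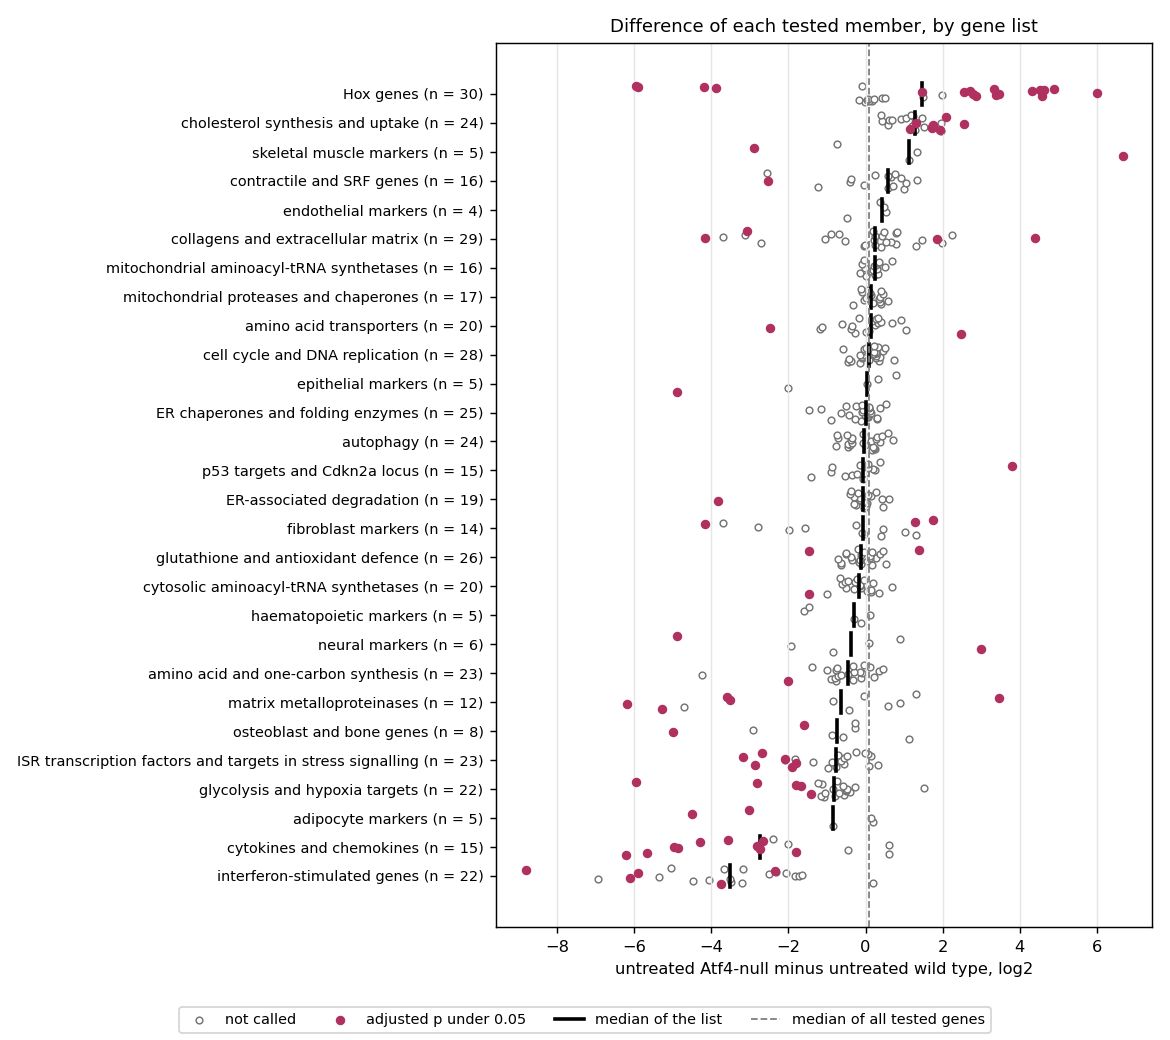
Difference between untreated Atf4-null and wild-type cells (x axis, log2) for each tested member of 28 gene lists, with the list's median as a black bar and the median of all tested genes as a dashed line. Members called at a limma adjusted p under 0.05 are filled. Cytokines, interferon-stimulated genes and hypoxia targets lie to the left, cholesterol genes to the right, and Hox genes on both sides.

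Many of the genes with the lowest differences were acute-phase and innate immune genes. Saa3, an acute-phase serum amyloid, was 8.79 and 8.81 in wild type against -5.22 and -1.16 in Atf4-null cells, of which 1 array was well above background (fitted difference -11.99 ± 1.98, limma adjusted p = 0.0138). Lcn2, a siderophore-binding lipocalin, was 7.03 and 6.74 against -1.11 and -1.89 (difference -8.38 ± 0.57, limma adjusted p = 0.0013). Saa1, a second serum amyloid, was 6.28 and 6.55 against -0.85 and -1.41, 187-fold lower (limma adjusted p = 0.000395). Nos2, the inducible nitric oxide synthase, was 3.66 on both wild-type arrays against -3.80 and -3.85, 179-fold lower (limma adjusted p = 0.0013). The replicates of Lcn2, Saa1 and Nos2 lay close together in both genotypes. The call of Saa3 was lost without either wild-type array (0.0746 and 0.0627) and without Atf4-null replicate 1 (0.0536).

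Of 15 tested cytokines and chemokines 10 were lower and 0 higher by limma, against 5.43% and 2.6% of all tested genes, with 12 lower and 0 higher at an unadjusted p under 0.05, against 11.2% and 9.14%. The median was -2.73, and it was -2.33 and -2.98 within the 2 sessions. Il6 was 4.10 and 4.17 in wild type against -1.16 and -3.01 (difference -6.22 ± 0.70, limma adjusted p = 0.00325). Cxcl5, a neutrophil attractant, was 7.56 and 8.17 against 3.94 and 1.89 (difference -4.95 ± 0.69, adjusted p = 0.00722). The alarmin Il33 and Cxcl2 were above background on both wild-type arrays and on no Atf4-null array. With the main processing they were at least 10.9-fold and 6.78-fold lower (limma adjusted p = 0.00251 and 0.0129). Over the settings run their differences were as small as -1.99 and -1.59, short of these bounds. Il33 and Cxcl2 passed the filter through wild type alone, so their direction was set by it, and the count of 10 includes them. Fits without 1 array kept that filter. Cxcl12, Il11 and Csf1 did not pass, with differences of 0.60, 0.61 and -0.45. The count of lower members was 4 without wild-type replicate 1, 6 without wild-type replicate 2 or without Atf4-null replicate 2, and 7 without Atf4-null replicate 1. The calls of Cxcl2 were lost without any 1 of the 4 arrays (adjusted p from 0.0522 to 0.0662).

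Of 22 tested interferon-stimulated genes 21 had a difference below 0, but few passed the test, and the Atf4-null arrays lay far apart. By limma 5 were lower and 0 higher, against 5.43% and 2.6% of all tested genes. An unadjusted p under 0.05 was found for 21 lower and 0 higher members, against 11.2% and 9.14%. The median was -3.50, with -2.50 within the session of replicate 1 and -4.58 within that of replicate 2. Rsad2, the antiviral enzyme viperin, was 3.54 and 2.48 in wild type against -2.56 and -3.65 (difference -6.11 ± 0.47, limma adjusted p = 0.0013). Xaf1 was 6.61 and 5.24 against -0.68 and -5.07, the last not well above background (fitted difference -8.80 ± 1.41, limma adjusted p = 0.0124). Its call was lost with the mean of all its probes, where the difference was -5.52 (adjusted p = 0.0501). Isg15, a ubiquitin-like modifier, was 8.86 and 8.39 against 6.72 and 3.57, and did not pass (limma adjusted p = 0.0759). Oas3, which makes 2-5A and is not on the list, was at least 82.3-fold lower with the main processing (limma adjusted p = 0.00547). Over the settings run its difference was as small as -3.89, short of that bound.

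Atf4-null replicate 2 was the lowest array in 21 of the 22 genes, and wild-type replicate 1 was the highest in 21. With the scan session as a block 18 of 22 were lower, and without Atf4-null replicate 1 the count was 21. Without wild-type replicate 1 it was 1, with Xaf1 no longer called (adjusted p = 0.0776), and without wild-type replicate 2 it was 3. Atf4 itself was also lower on Atf4-null replicate 2, and the part of this difference between the Atf4-null arrays in the result was not tested.

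**Figure D3:**
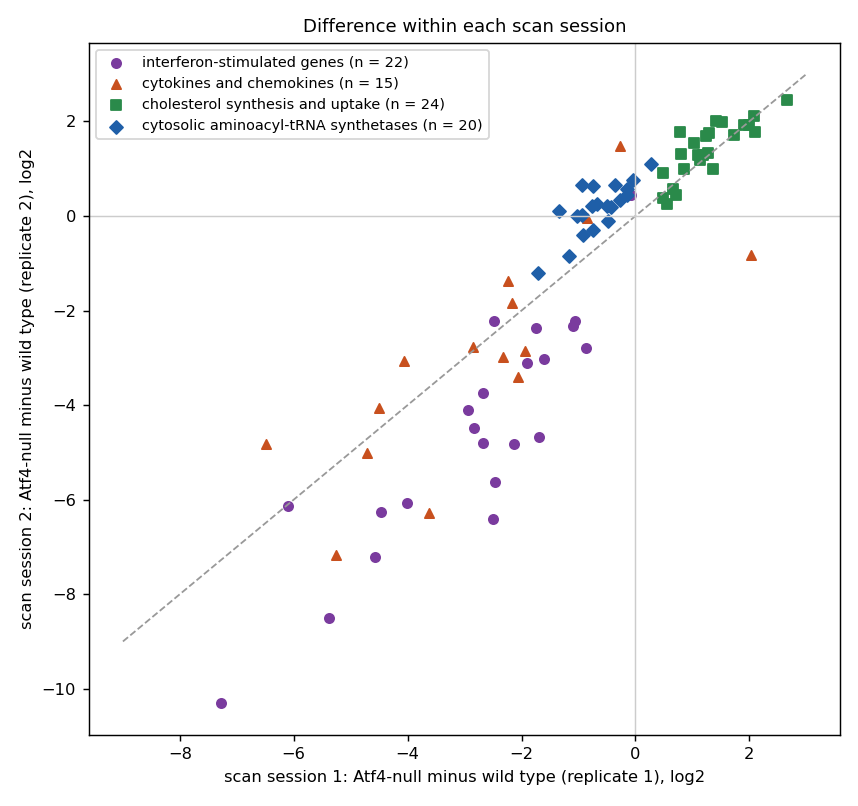
Difference between Atf4-null and wild-type cells within scan session 1 (x axis, log2, the arrays of replicate 1) against that within session 2 (y axis, replicate 2), 1 point a gene, for 4 lists; the dashed line marks equal differences. Interferon-stimulated genes lie below the line, with medians of -2.50 and -4.58, cholesterol genes lie near it at 1.22 and 1.44, and the synthetases lie above it at -0.71 and 0.21.

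Of 12 tested matrix metalloproteinases and ADAMTS proteases 4 were lower and 1 higher, against 5.43% and 2.6% of all tested genes. The list's median was -0.63, with 0.11 within the session of replicate 1 and -1.37 within that of replicate 2. Mmp13, a collagenase, was 3.47 and 2.73 in wild type against -3.10 and -3.08 (difference -6.19 ± 0.89, limma adjusted p = 0.0078). Mmp3, stromelysin, was 6.26 and 5.76 against 2.09 and -0.60 (difference -5.26 ± 0.83, adjusted p = 0.0116). The higher member was Adamts1, at 6.14 and 5.05 against 1.85 and 2.40 in wild type (difference 3.47 ± 0.44, limma adjusted p = 0.00522). No member was called lower without wild-type replicate 1, where Mmp13 had an adjusted p of 0.0578 and Mmp3 of 0.0731. Without Atf4-null replicate 2 the count of lower members was 2.

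Among 29 tested collagens and matrix genes 2 were higher and 2 lower, against 2.6% and 5.43% of all tested genes, and the list's median was 0.97 within the session of replicate 1 and -0.30 within that of replicate 2. Postn, which encodes periostin, was -2.53 and -2.44 in wild type against 3.36 and 0.45 (difference 4.39 ± 0.81, limma adjusted p = 0.0205). Dcn, the proteoglycan decorin, was 5.64 and 4.78 against 1.86 and 0.22 (difference -4.17 ± 0.73, limma adjusted p = 0.017). The calls of Postn were lost without either wild-type array (0.103 and 0.0859), and those of Dcn without wild-type replicate 1 (0.102) or Atf4-null replicate 2 (0.0712). Col3a1, a fibrillar collagen, was 5.01 and 4.74 in wild type against 6.46 and 3.19, so the Atf4-null arrays lay on either side of wild type. Alpl, the alkaline phosphatase of bone, was 0.78 and 0.61 against -3.77 and -4.84, the last not well above background (fitted difference -5.00 ± 0.46, limma adjusted p = 0.00195; -2.58 with normexp).

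Of 24 genes of cholesterol synthesis and uptake, all of which were tested, 8 were higher and 0 lower by limma. The shares of all tested genes were 2.6% and 5.43%. An unadjusted p under 0.05 was found for 18 higher and 0 lower members, against 9.14% and 11.2%. Every member had a difference above 0, and the median was 1.28 against 0.08 for all tested genes. Within the sessions it was 1.22 and 1.44. Cyp51, the lanosterol demethylase, was -0.94 and 0.11 in wild type against 1.72 and 2.55 (difference 2.56 ± 0.43, limma adjusted p = 0.0143). Insig1, which retains the SREBP pathway in the endoplasmic reticulum, was -1.42 and -0.89 against 0.66 and 1.23 (difference 2.10 ± 0.32, limma adjusted p = 0.0107). Another fit took all 4 untreated wild-type arrays and a term for the run, which groups arrays by the year of their scan date. There the difference of Insig1 was 1.15 and did not pass (limma adjusted p = 0.239). Mvk, mevalonate kinase, was 3.69 and 4.05 against 5.59 and 5.98 (difference 1.92 ± 0.29, adjusted p = 0.00941).

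In 22 of 24 cholesterol genes replicate 2 was higher than replicate 1 in both genotypes. With the scan session as a block 14 members were higher. The count was 0 without wild-type replicate 1, where Cyp51, Insig1 and Mvk had adjusted p-values of 0.0698, 0.0692 and 0.0665. It was 3 without Atf4-null replicate 2, 5 without wild-type replicate 2 and 4 without either treated Atf4-null array of the fit.

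Of 22 tested glycolysis and hypoxia targets 5 were lower and 0 higher by limma, against 5.43% and 2.6% of all tested genes. An unadjusted p under 0.05 was found for 11 lower and 1 higher, against 11.2% and 9.14%. The list's median was -0.82 (-0.93 and -0.96 within the sessions). Slc16a3, the lactate exporter MCT4, was 5.41 and 5.39 in wild type against 0.02 and -1.12, 61.9-fold lower (difference -5.95 ± 0.61, limma adjusted p = 0.00251). Car9, a hypoxia-induced carbonic anhydrase, was -0.81 and -0.69 against -2.75 and -4.39, the last not well above background (fitted difference -2.83 ± 0.55, limma adjusted p = 0.0247). Bnip3, a mitophagy receptor, differed by -1.81 ± 0.33 (adjusted p = 0.02) and Pdk1, which inhibits pyruvate dehydrogenase, by -1.66 ± 0.40 (0.0491). Gapdh and Ldha differed by -0.51 and -0.60 and did not pass. Slc16a3 kept its call without each of the 4 arrays in turn, while Car9 lost it without either wild-type array (0.109 and 0.106) or Atf4-null replicate 2 (0.0588), and Bnip3 and Pdk1 without any 1 of the 4. Pdk1 also lost it with quantile normalization (0.058). The count of lower members was 1 without either wild-type array or Atf4-null replicate 2, and 2 without Atf4-null replicate 1.

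Hox genes, which record the position along the body axis that fibroblasts keep in culture, split by cluster. Of 30 tested, 14 were higher and 4 lower, against 2.6% and 5.43% of all tested genes. All 8 tested HoxC genes and 6 of 7 tested HoxB genes were higher. None of the 7 tested HoxB genes and 3 of the 8 HoxC genes were above background on a wild-type array. The others passed the filter through the Atf4-null arrays alone, so their folds are bounds, from at least 1.6-fold to at least 21.6-fold for the 6 called HoxB genes and from at least 1.18-fold to at least 9.77-fold for 5 HoxC genes. The 3 HoxC genes measured in both genotypes, Hoxc4, Hoxc6 and Hoxc9, had differences of 2.56, 4.33 and 4.51. Of 5 tested HoxD genes 4 (Hoxd8, Hoxd9, Hoxd10 and Hoxd11) were lower, and none of these was above background on an Atf4-null array. Of the 14 Hox genes above background in both genotypes 3 were higher and 0 lower, with a median of 0.19. Of 10 tested HoxA genes 0 were called by limma, with differences between -0.18 and 1.49.

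Hoxc6 was -2.93 and -3.04 in wild type against 0.93 and 1.76 in Atf4-null cells (difference 4.33 ± 0.31, limma adjusted p = 0.0013). Hoxb9 stood at -0.30 and 0.69 in Atf4-null cells and was at least 21.6-fold higher there (limma adjusted p = 0.0113). Hoxd11 was 0.77 and 0.42 in wild type and at least 41.7-fold lower in Atf4-null cells (limma adjusted p = 0.00145), and Hoxd10 was at least 25.8-fold lower (limma adjusted p = 0.00257). Hoxd13, in the same cluster, was 3.14 and 3.32 against 3.10 and 3.18 (difference -0.09, limma adjusted p = 0.902). The 4 lower Hox genes, all of HoxD, passed the filter through the wild-type arrays alone. Fits without 1 array kept that filter, so they are no further check on these genes. The 6 called HoxB genes, Hoxb9 among them, and 5 of the 8 called HoxC genes passed the filter through the Atf4-null arrays alone. For them too, fits without 1 array are no further check. The count of higher members was 7 without wild-type replicate 1 and 8 without Atf4-null replicate 2, and Hoxb9 lost its call in both cases (0.0604 and 0.0617).

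**Figure D4:**
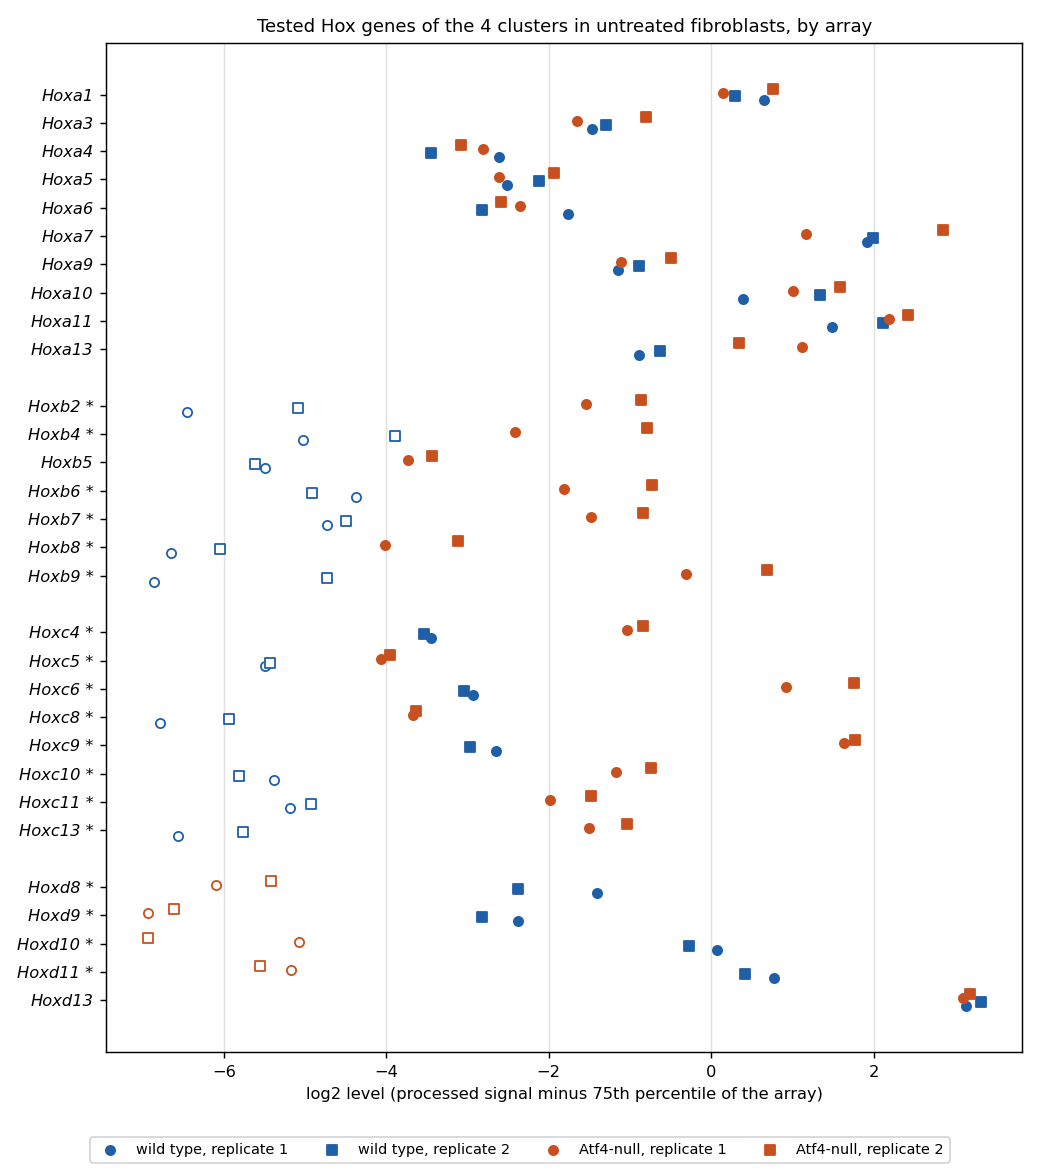
Level of the 30 tested Hox genes on each of the 4 arrays, grouped by cluster (x axis: log2 level relative to the 75th percentile; open symbols: not well above background; asterisk: limma adjusted p under 0.05). HoxB and HoxC genes are higher on the Atf4-null arrays, Hoxd8 to Hoxd11 are higher on the wild-type arrays, and HoxA genes and Hoxd13 lie together.

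Other genes among those that differed most included further developmental and muscle genes. Hand2 and Lhx9, transcription factors of limb and other mesenchyme, were higher in Atf4-null cells: Hand2 was at least 19.3-fold higher (limma adjusted p = 0.00145), and Lhx9 was 2.36 and 2.18 against -4.17 and -2.32 (limma adjusted p = 0.00227). Myh1 and Myh8, myosin heavy chains of skeletal muscle, stood at 2.49 and -0.45 and at 2.74 and -0.46 in Atf4-null cells and were below background in wild type. They were at least 38.4-fold and 41.7-fold higher (limma adjusted p = 0.00526 and 0.0124), and the call of Myh8 was lost without either wild-type array (0.0584 and 0.064). Of 13 skeletal muscle markers, 5 were tested; Myh8 was higher and the troponin Tnnc1 lower (difference -2.89, limma adjusted p = 0.00753; 0.0516 without wild-type replicate 1). The summed signal of this list was 3.42 and 3.35 in wild type and 10.6 and 3.81 in Atf4-null cells, and its part in the result was not tested. Gda, guanine deaminase, was 3.36 and 4.38 in wild type against -2.71 and -4.29, 165-fold lower (limma adjusted p = 0.002). Ripk4, a kinase of epithelial differentiation, was at least 54.5-fold higher (limma adjusted p = 0.0013).

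The same genotypes were also compared after tunicamycin, which blocks N-glycosylation and stresses the endoplasmic reticulum. No array is shared with the untreated comparison, but the spread was estimated from the same 8 arrays. The treated arrays lay on another slide and were scanned in other sessions than the untreated ones. Condition, slide and session therefore cannot be told apart. Of 13385 genes tested 3035 were called (22.7%), with 1266 higher (9.46%) and 1769 lower (13.2%) in Atf4-null cells. Of the 717 genes lower without stress, 622 were tested with it, and 47.6% were lower and 8.04% higher. Of the 343 genes higher without stress, 312 were tested with it, and 64.7% were higher and 4.49% lower. The count of 3035 fell to between 1087 and 1506 when any 1 of the 4 treated arrays was left out, the lowest being without wild-type replicate 1.

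The stress lists differed more with tunicamycin than without. Of 24 genes of the stress signalling list 22 were lower (median -2.47), of 23 synthesis genes 17 (median -3.06) and of 20 synthetases 16 (median -2.11). The change between the conditions was tested directly as the difference with tunicamycin minus that without, and 6.13% of 13204 genes were called. Among the members tested in both conditions, 9 of 23 stress signalling genes, 10 of 23 synthesis genes and 6 of 20 synthetases were called. Chac1 was 7.30 and 7.09 in treated wild type against -0.20 and 0.33 in treated Atf4-null cells, a change in the difference of -5.33 (limma adjusted p = 0.00704). Asns was 7.5 and 7.34 against 1.29 and 1.99, a change of -3.77 (limma adjusted p = 0.0147). For Vldlr and Vegfa the difference with tunicamycin, -2.25 and -2.45, was near that without, and the change did not pass (limma adjusted p = 0.867 and 0.87).

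Other lists turned. Cholesterol genes had 1 higher and 13 lower of 24 with tunicamycin, with a median of -1.59, and 15 of 24 changed between the conditions. Insig1 was 0.77 and 0.55 in treated wild type against -1.53 and -2.01, a change of -4.53 (limma adjusted p = 0.00896). Of 22 interferon-stimulated genes 3 were higher and 1 lower with tunicamycin, against 9.46% and 13.2% of all tested genes. Their change between the conditions was called for 6 of 22, against 6.13% of all tested genes. Of 11 cytokines 3 were higher and 3 lower with tunicamycin. Saa1, which differed by -7.55 without stress, stood at -0.67 and -0.33 in treated wild type and -0.27 and 0.09 in treated Atf4-null cells (difference 0.41, limma adjusted p = 0.354). Mmp3 was lower without stress and higher with it (difference 3.87, limma adjusted p = 0.019). Of 26 Hox genes tested in both conditions 13 were called in both with the same sign and 0 with opposite signs. Over all genes called without stress and tested with it, 47.6% of the lower and 64.7% of the higher ones were called in the same direction. Called in the opposite direction were 8.04% and 4.49%. The 26 Hox genes include members not called without stress, so their share has another base. Most Hox genes called without stress were above background in 1 genotype only and passed the filter through it.

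**Figure D5:**
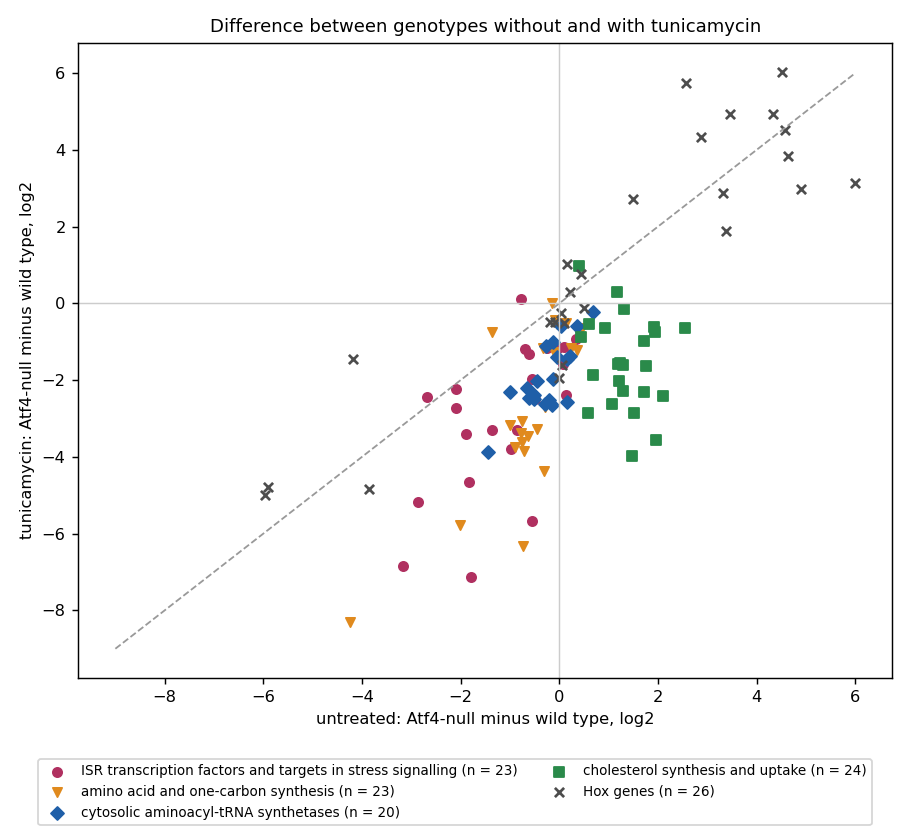
Difference between Atf4-null and wild-type cells without tunicamycin (x axis, log2) against that with tunicamycin (y axis, log2), 1 point a gene, for members of 5 lists tested in both; the dashed line marks equal differences. Hox genes lie along the line, stress signalling, synthesis and synthetase genes lie below it, and cholesterol genes lie to the right of 0 and mostly below 0, at medians of 1.28 and -1.59.

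Finally the members were set beside comparisons that share no array with the untreated one. In Fv2E-PERK cells, where AP drives a PERK kinase domain to dimerise, 39.5% of 12986 tested genes were called, 25.2% higher and 14.3% lower after AP. In the other wild-type line tunicamycin changed 34.3% of 13708 tested genes, with 18.8% higher and 15.5% lower. Of 23 tested genes of the stress signalling list 20 were higher after AP (median 1.39), and 22 of 24 were higher after tunicamycin in the other line (median 1.95). Trib3 gave 4.0 after AP and 3.06 after tunicamycin, Chac1 gave 2.84 and 2.92, and Vldlr 2.98 and 1.85. Of the 717 genes lower in untreated Atf4-null cells, 523 were tested in the AP comparison and 26.6% were higher there, a share near the 25.2% of all tested genes, while 27.3% were lower, against 14.3%. In the tunicamycin comparison of the other line 592 were tested and 19.3% were higher, against 18.8% of all, while 33.1% were lower, against 15.5%.

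In untreated Perk-null cells against the wild type of their line, 54% of 13833 tested genes were called, 22.1% higher and 32% lower. Of the 611 genes tested there that were lower in untreated Atf4-null cells, 50.4% were higher and 22.9% lower. Of the 307 that were higher, 58% were lower and 19.2% higher. Trib3 differed by -2.54, Chac1 by -2.42, Asns by -2.09 and Atf5 by -1.89 in Perk-null cells. Each was called (limma adjusted p of 0.000183 at most) and lower, as in Atf4-null cells. Not all members went that way: of 24 stress signalling genes 12 were lower and 5 higher in Perk-null cells. Of 23 synthesis genes 15 were lower and 2 higher, against 32% and 22.1% of all tested genes. Slc16a3 differed by 3.19, Car9 by 5.09 and Bnip3 by 2.40, each in the direction opposite to that in Atf4-null cells, and 16 of 22 glycolysis and hypoxia targets were higher. The Perk-null comparison too sets 1 line against 1 line.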

How the data were processed

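Per the submitters' processing notes and the file headers, the one-colour Agilent arrays were extracted by Feature Extraction version 10.7.1.1. The deposited scanner files give a processed signal per spot, a linear intensity after background subtraction, per the file headers, and flags for spots above background. The deposited table of log2 values matched these after centring in 99.3245% of probe values (within 0.001); the baseline of that centring is unknown. Spots of a probe were averaged without outlier flags, log2 of the intensity was taken and each array's 75th percentile subtracted. Probes were named through RefSeq accessions (26574 of 55681 to 1 symbol, giving 20138 genes), and each gene took its brightest probe. A gene was tested if that probe was well above background on both arrays of at least 1 of the 2 groups. limma 3.58.1 (R 4.3.3) fitted 4 group means to the 8 untreated and tunicamycin-treated arrays of the Atf4-null line and its wild type. Benjamini-Hochberg adjustment ran over all genes tested, with a threshold of 0.05. A run, where a term for it was fitted, is the year of the scan date in the file headers and is not named in the labels. The fit was checked on simulated data. Named are Atf4, the 15 highest and 15 lowest called genes, up to 4 called members of each list, members of the first 4 lists and a set of well-known stress genes; other members of a list were named after their values were seen. Members and lists were chosen with earlier results of these data known. Whether same-numbered arrays pair was checked by the correlation of their deviations from the group means (0.216 untreated, 0.399 treated); the number is shared with the scan session. Alternatives changed the normalization, background correction, filter, probe choice, arrays in the fit and blocks, and left out each array. Results for some genes are not reported here.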

Additional observations from a re-analysis of the deposited data

Results flagged for a closer look

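The genes below were singled out because the difference between Atf4-null and wild-type cells itself differed between cells with and without tunicamycin (limma adjusted p under 0.05; 49 of the named genes, each tested in both conditions). Values are the log2 difference with tunicamycin minus that without. The treated Atf4-null replicate 1 had the lowest 75th percentile of all arrays, 111 units, and its part in these values was not tested.

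In the stress signalling genes the change was -2.31 for Trib3, -3.66 for Adm2, -2.82 for Atf3, -5.33 for Chac1, -2.44 for Ppp1r15a and -5.12 for Stc2. It was -2.0 for Ndrg1, -2.51 for Eif4ebp1 and -1.66 for Jdp2. In amino acid and one-carbon synthesis it was -3.77 for Asns, -2.86 for Phgdh, -4.06 for Psat1, -2.84 for Psph and -2.59 for Shmt2. It was -3.13 for Mthfd2, -2.82 for Mthfd1l, -2.81 for Aldh18a1, -2.29 for Gpt2 and -5.59 for Cth. Among transporters it was -1.83 for Slc1a5, -2.69 for Slc3a2, -3.97 for Slc6a9, -2.74 for Slc7a1 and -2.41 for Slc38a1, and it was above 0 for Slc38a4 (2.11) and Slc43a2 (2.88). Among synthetases it was -2.42 for Cars, -2.34 for Gars, -2.0 for Iars, -2.52 for Lars, -1.87 for Sars and -2.31 for Wars, and for Derl3 it was -7.61. Derl3 was not above background in untreated Atf4-null cells, so the size of its change was not measured.

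In cholesterol genes the change was -3.21 for Cyp51, -4.53 for Insig1, -2.53 for Mvk and -3.39 for Lss. In immune and acute-phase genes it was 13.12 for Saa3, 8.27 for Lcn2, 7.96 for Saa1, 5.68 for Nos2, 10.61 for Cfb, 2.99 for Rsad2, 5.27 for Il6 and 6.78 for Cxcl5. It was 6.41 for Dcn and 9.14 for Mmp3, and -3.62 for Tnni2 and -2.44 for Map2. Saa3, Cfb, Tnni2 and, above, Adm2 were not well above background on every untreated array. The sizes of their changes rest partly on levels that were not measured.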

How the results depend on the processing

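The untreated count of 1060 became 617 with no filter on dim probes and 601 with only the 4 arrays compared in the fit. It became 3501 with all 24 arrays in the fit and 3092 with all 4 untreated wild-type arrays and a term for the run. Leaving out 1 compared array gave 445 to 977, and leaving out a treated array of the fit 852 to 866. A replicate block gave 1131 and ended the call of Atf4 (adjusted p = 0.0744), and the scan session as a block, chosen after seeing the data, 1272, of which 970 were among the 1060. Quantile normalization gave 940, normexp 1118, the mean of probes 1100, the intensity trend 1157, deposited values 1062 and the filter on both groups 717. Of 81 named genes called, 40 to 63 kept their call without 1 compared array, and no named gene that was called reversed in any setting run. With tunicamycin the count of 3035 was 1819 with no filter, 6833 with all 24 arrays, 3120 with the replicate block and 1087 to 1506 without 1 array. The AP count of 5124 was 940 with all 24 arrays and 2494 to 3678 without 1 array. The tunicamycin count of the other line, 4700, was 3082 with no filter, 3125 with all 24 arrays and 2369 to 2682 without 1 array. The Perk-null count of 7475 stayed between 5340 and 7673. For interferon-stimulated genes, called members numbered 5, against 20 with normexp and 16 with the intensity trend; cholesterol genes numbered 8, against 21 with all 24 arrays and 2 with only the 4. Genes near background have no measured level in the dim group, which limits the folds given as bounds. Over the settings run, the smallest difference was -2.78 for Hoxd11, -2.62 for Hoxd10 and 2.27 for Hoxb9. It was 2.54 for Hand2, 3.65 for Myh1, 3.51 for Myh8 and 3.6 for Ripk4. Each is short of the bound given, so these bounds hold under the main processing and not in every setting.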
